A study of Homo sapiens with 12 samples.

Results

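The genes described here are 49 genes of DNA replication and S phase, chosen by name for their role, with earlier results of these data known. They cover the licensing of replication origins, origin firing, the replicative polymerases, the sliding clamp with its loader, nucleotide supply, the cyclin E and E2F switch, and chromatin assembly behind the fork. All 49 were found among the 20503 genes that a probe of the array names, on 59 of 50599 probes, by the RefSeq transcript given for each probe. Each gene was read from its brightest probe, and all 49 passed the filter on dim probes in every comparison.

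RNA came from HA22T and PLC5, established cell lines of hepatocellular carcinoma, and was hybridized to 12 one-color arrays. Each line was transfected with 10 nM of a non-targeting siRNA (siControl) or of a pool of siRNAs against GALNT1 (siGALNT1), the enzyme that starts mucin-type O-glycosylation. Cells were harvested after 48 h, with 3 arrays in each of the 4 groups. The untransfected lines were not analysed here, so every group carries the effect of transfection.

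Before S phase, the origin recognition complex, CDC6 and CDT1 load the MCM helicase onto DNA, and cyclin E with CDK2 and the firing factors then switch it on. PCNA, loaded by the RFC complex, holds the polymerases on the template, while ribonucleotide reductase and thymidylate synthase supply nucleotides. Many of these genes are transcribed together at the end of G1 by E2F factors, and their mRNA levels are commonly read as a sign of proliferation. In RNA from whole cultures, a smaller share of cells in S phase and less of these mRNAs in each cell cannot be told apart.

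RefSeq promoter sequences, 250 bases before to 50 bases after the gene start on GRCh38.p14, were held for 40 of the 49 genes. An E2F motif, searched on both strands as TTTGGCGC, TTTCCCGC, TTTCGCGC or TTTGCCGC (which can overlap one another), was present in 22 of these 40 promoters, or 55.0%, against 3.33% of all 27305 promoters of that length. The CCAAT box, searched as CCAAT on both strands, was in 22 of the 40 promoters as well, against 35.7% of all promoters. Both were present in 13 of the 40, or 32.5%, against 1.29% of all. The last 120 bases before the gene start are given as examples, with the E2F motif in capitals. They are from genes that were higher in HA22T in both comparisons of the lines and hold the motif in this stretch. Its closeness to the start is thus set by the choice. MCM2 and GINS1, also called in both, hold the motif only after the start, and TYMS, with it 39 bases before, is not shown. MCM6 (chr2:135876444-135876563, minus strand), CDT1 (chr16:88803669-88803788, plus strand), PCNA (chr20:5126623-5126742, minus strand), UHRF1 (chr19:4909381-4909500, plus strand) and DTL (chr1:212035628-212035747, plus strand) are each read 5′ to 3′ along the gene.
MCM6: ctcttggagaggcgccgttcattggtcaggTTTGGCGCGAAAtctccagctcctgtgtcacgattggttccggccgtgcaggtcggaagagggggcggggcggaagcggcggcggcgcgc
CDT1: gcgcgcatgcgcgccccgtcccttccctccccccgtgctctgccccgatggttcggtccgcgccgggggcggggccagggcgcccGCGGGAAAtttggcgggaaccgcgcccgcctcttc
PCNA: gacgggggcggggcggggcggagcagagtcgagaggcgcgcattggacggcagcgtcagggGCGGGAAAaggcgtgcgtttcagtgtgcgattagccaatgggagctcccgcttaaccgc
UHRF1: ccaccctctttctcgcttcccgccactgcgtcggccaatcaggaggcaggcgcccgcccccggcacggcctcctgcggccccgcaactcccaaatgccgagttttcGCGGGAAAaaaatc
DTL: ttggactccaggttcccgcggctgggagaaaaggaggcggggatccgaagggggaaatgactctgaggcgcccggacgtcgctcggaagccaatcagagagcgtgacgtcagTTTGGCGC
The motif starts 35 bases before the gene start in CDT1, 59 in PCNA, 14 in UHRF1 and 8 in DTL, and MCM6 holds 2 overlapping matches in this stretch. Letters that match are a description of the sequence and not evidence that a factor binds there. As a description with no test, 8 of the 22 genes with the motif and 8 of the 18 without it were called in both comparisons of the lines, with median log2 differences of 1.05 and 1.19 with siControl.

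The targeted gene was read first. GALNT1 has 2 probes, and values are log2 signals relative to the 75th percentile of the array, in the order of replicates 1 to 3. In HA22T its brighter probe read 1.41, 1.06 and 1.00 with siControl and -2.83, -3.28 and -5.35 with siGALNT1. In PLC5 the same probe read 0.99, 0.41 and 0.67 with siControl and -1.85, -3.44 and -3.77 with siGALNT1. Both probes were lower on every siGALNT1 array than on every siControl array of the same line. In HA22T the brighter probe differed by -4.98 ± 0.63 (SE) and did not pass adjustment over all probes (adjusted p = 0.118), and the other probe differed by -4.63 ± 0.50 and did (adjusted p = 0.0486). These were well above background on only 2 and 1 of the 3 HA22T siGALNT1 arrays, so the size of the difference is not exact. In PLC5 the probes differed by -3.71 ± 0.63 and -3.02 ± 0.50, and neither passed adjustment (unadjusted p = 9.56e-05 and 7.44e-05).

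Knockdown of GALNT1 was not followed by a detectable change in any of the 49 replication genes in HA22T. After adjustment over all probes, limma called 0 of the 49, and at an unadjusted p below 0.05 it also called 0. Over all 36327 probes tested in HA22T, 0.00275% were called at the adjusted threshold and 3.33% had an unadjusted p below 0.05. The median log2 difference of the 49 genes was -0.02 (siGALNT1 minus siControl), beside 0.06 for all probes, and 19 genes were above 0, against 58.5% of all probes. That count rested on single arrays, since it was 36 without siControl replicate 1 and 10 without siControl replicate 3. The criterion of the methods, a fold of at least 1.5 with an unadjusted p below 0.05, was met by 0 genes, against 3.27% of all probes. These counts come from a fit that did not pair the arrays. With same-numbered arrays paired, limma still called 0 after adjustment, and 1 gene, GINS3, met the criterion.

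The largest differences in HA22T were 0.62 ± 0.40 (SE) for GINS2 and -0.65 ± 0.53 for GINS3, which are subunits of the same GINS complex in the active helicase. CCNE2, a cyclin E, differed by 0.52 ± 0.44, and FEN1, the nuclease that trims Okazaki fragments, by 0.39 ± 0.40. The dimmer probe of CCNE2, well above background on every HA22T array, gave 0.02. On the lower side, CLSPN, a checkpoint adaptor, differed by -0.39 ± 0.47 and UHRF1, which guides maintenance DNA methylation to new DNA, by -0.35 ± 0.52. Every 95% interval among the 49 genes included 0. TK1, thymidine kinase of the salvage pathway, was the only gene of the 47 with all values whose groups did not overlap, with 5.24, 5.33 and 5.22 against 5.38, 5.81 and 5.35 with siGALNT1, while 5.27% of all probes were higher and 2.31% lower without overlap.

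In PLC5 no gene was called either, with 0 at an unadjusted p below 0.05, where 0% of 38070 probes were called and 1.23% had an unadjusted p below 0.05. The criterion of fold and unadjusted p was met by 0 genes, against 1.2% of all probes. Of the 49 genes, 38 were above 0, against 53.3% of all probes, and their median log2 difference was 0.15, beside 0.02. That median depended on single arrays. It was -0.09 without siGALNT1 replicate 1, -0.09 without siControl replicate 2 and 0.44 without siControl replicate 1. Between same-numbered arrays it was 0.09 for number 1, 0.57 for number 2 and -0.16 for number 3.

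In PLC5 the range ran from GINS2 to DTL. DTL, a receptor of the ubiquitin ligase that removes CDT1 in S phase, differed by 0.50 ± 0.39 (SE), and CDT1 itself by 0.49 ± 0.36. RRM2, the regulated subunit of ribonucleotide reductase, differed by 0.43 ± 0.48. GINS2 differed by -0.50 ± 0.40, POLE2, a subunit of polymerase epsilon, by -0.33 ± 0.36, and CHAF1A, the large subunit of chromatin assembly factor 1, by -0.32 ± 0.39, from 2 siControl values. A dimmer probe of CHAF1A, well above background on all 12 arrays, gave 0.29, so no direction is given for CHAF1A with knockdown in PLC5. The groups overlapped for all 48 genes with a value on every PLC5 array, where 2.83% of probes were higher and 1.58% lower without overlap.

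**Figure D1:**
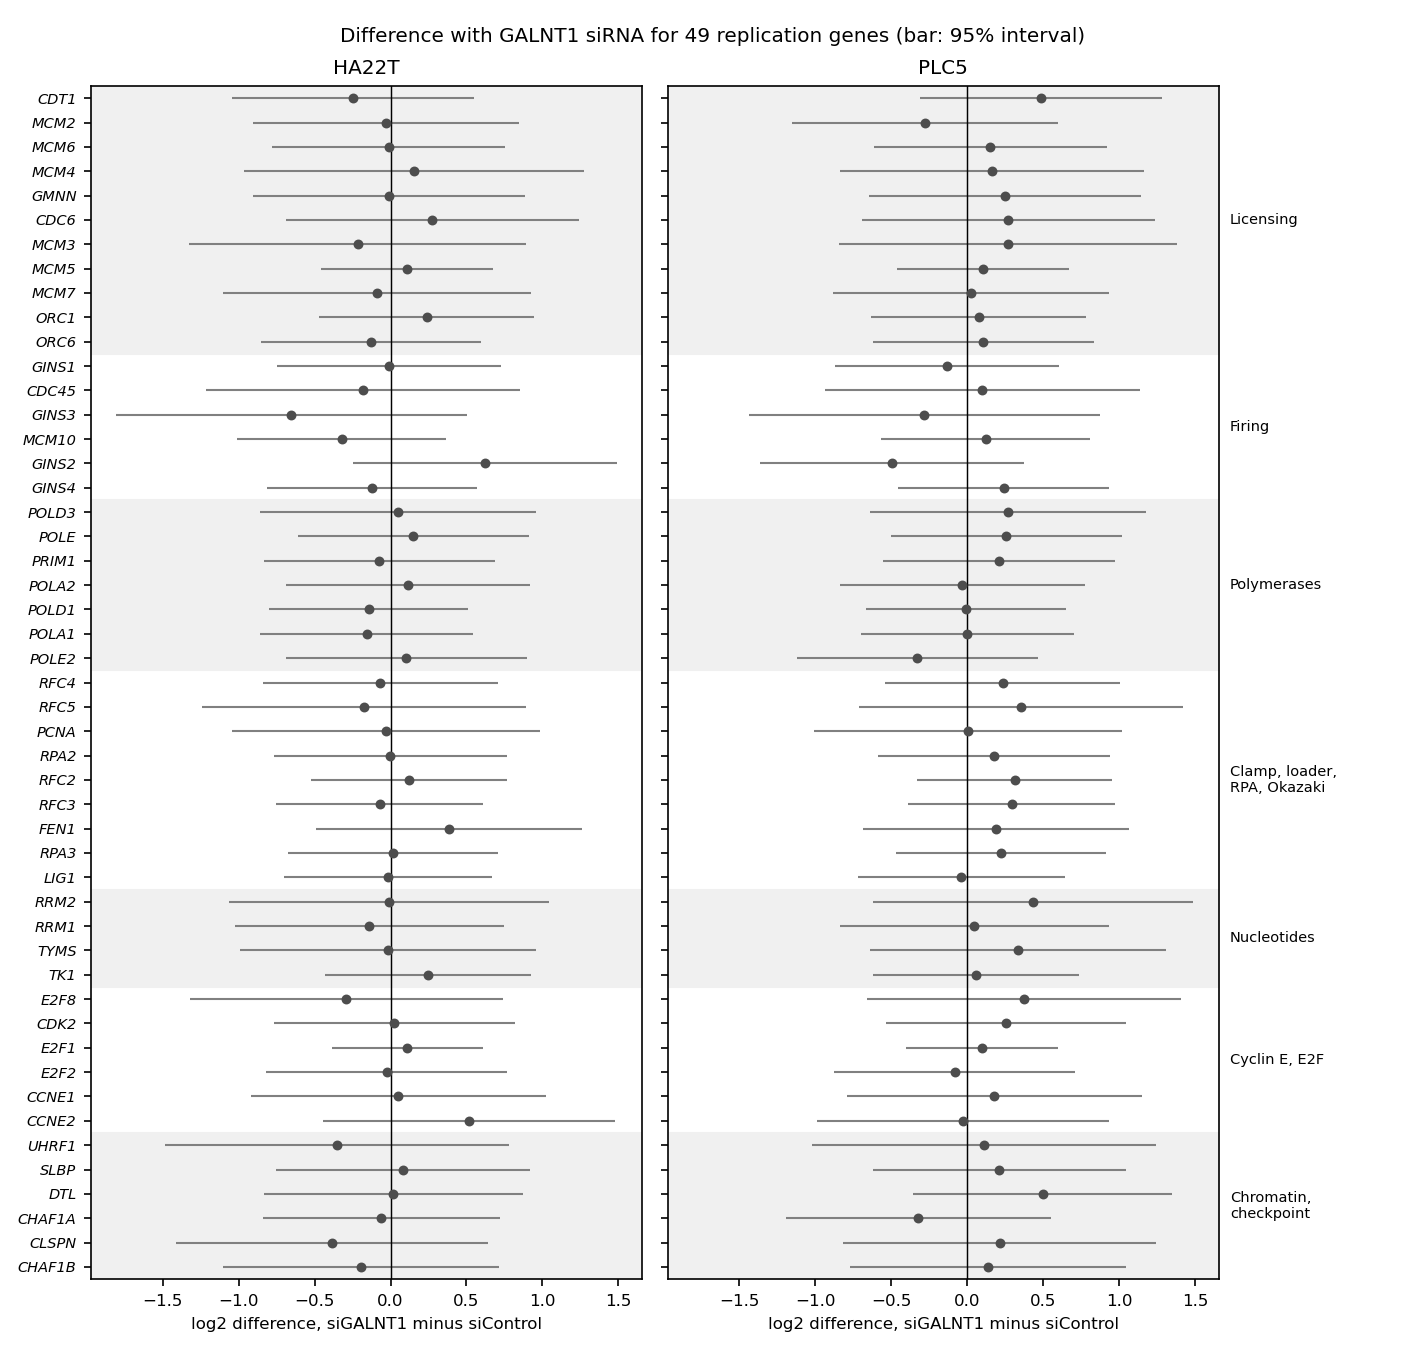
Log2 difference (siGALNT1 minus siControl) of the 49 replication genes in HA22T and in PLC5, by role. Points are limma estimates and bars are 95% intervals, n = 3 arrays a group; all intervals reach across 0. The lowest and highest estimates are -0.65 and 0.62 for HA22T, and -0.50 and 0.50 for PLC5.

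By role, the median differences with knockdown lay between -0.15 and 0.05 for HA22T, and between -0.02 and 0.22 for PLC5. The 11 licensing genes had a median of -0.01 in HA22T and 0.15 in PLC5, with differences of -0.03 ± 0.40 (SE) and -0.28 ± 0.40 for MCM2. PCNA differed by -0.03 ± 0.46 in HA22T and by 0.01 ± 0.46 in PLC5. The inhibitor of CDT1, GMNN, differed by -0.01 ± 0.41 and 0.25 ± 0.41, and E2F1 by 0.11 ± 0.23 and 0.10 ± 0.23. Thymidylate synthase, TYMS, differed by -0.02 ± 0.44 and 0.34 ± 0.44. CDC6 differed by 0.28 ± 0.44 and 0.27 ± 0.44, from a probe that was well above background on only 2 of 3 arrays in HA22T siGALNT1 and in PLC5 siControl.

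No gene was called as differing between the lines in its response to knockdown. In the interaction test 0 of 49 passed (0% of 39100 probes did), and 0 had an unadjusted p below 0.05 (2.63% of probes). The difference of the responses (HA22T minus PLC5) was above 0 for 15 genes, against 54.3% of probes. This count was 34 without PLC5 siGALNT1 replicate 1, 31 without PLC5 siControl replicate 2 and 5 without PLC5 siControl replicate 1. GINS2 came nearest, with a response in HA22T that exceeded that in PLC5 by 1.12 ± 0.56 (SE, unadjusted p = 0.0715). Its HA22T arrays read 2.31, 3.16 and 2.82 with siControl and 3.42, 3.64 and 3.10 with siGALNT1, and its PLC5 arrays 2.18, 2.83 and 2.68 against 1.89, 1.38 and 2.93. CCNE2 followed at 0.54 ± 0.62 and POLE2 at 0.43 ± 0.51. At the other end were CDT1 at -0.73 ± 0.51, E2F8, a repressing E2F, at -0.66 ± 0.67 and CLSPN at -0.60 ± 0.66. With 3 arrays a group, the 95% interval of a knockdown effect spanned 0.80 on either side at the median gene in HA22T and 0.83 in PLC5. The intervals of 20 genes in HA22T and 27 in PLC5 reached past a log2 difference of 1 in one direction or the other. For the difference of the responses, the interval spanned 1.17 on either side at the median gene. There 46 of the 49 intervals reached past 1, so differences of that size are not excluded.

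The lines themselves differed in these genes. With siControl, 23 of the 49 were called higher in HA22T than in PLC5 and 0 lower, where 13% of 38011 probes were called higher and 9.61% lower. The median log2 difference (HA22T minus PLC5) of the 49 genes was 1.13, beside 0.15 for all probes, and 44 genes were above 0, against 57.8% of probes. With siGALNT1, 20 were called higher and 0 lower, where 15% of 36741 probes were called higher and 10.3% lower, with a median of 0.98 beside 0.32 and 45 genes above 0, against 65.3% of probes. Taken relative to those medians of all probes, a setting chosen after seeing the data, 19 genes were called with siControl, all higher, and 8 with siGALNT1, of which 7 were higher and GINS4 was lower. The share of all probes called under this setting was not taken. No array is in both comparisons, but the arrays of both lie on the same slides in the same way.

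There were 19 genes called in both, which is 82.6% of the siControl list and 95% of the siGALNT1 list. The share of all probes called in both was not taken, so this overlap is a description only. They were CDC45, CDK2, CDT1, CHAF1A, DTL, GINS1, MCM2, MCM6, PCNA, POLD3, RFC2, RFC4, RPA2, RRM1, RRM2, SLBP, TK1, TYMS and UHRF1. E2F8, POLE, RFC3 and RFC5 passed with siControl alone and GINS2 with siGALNT1 alone, and 0 of these 5 passed the test of the difference between the siRNAs. The arrays of the lines did not overlap with siControl for 29 of 46 genes that were higher in HA22T and 1 that was lower, against 26.9% and 16.6% of probes, and with siGALNT1 for 31 of 49 and 1, against 26.6% and 16.3%. Of the 46 genes with a value on every array, 26 were higher on all 6 HA22T arrays than on all 6 PLC5 arrays and 0 were lower, against 17.1% and 12.1% of probes.

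**Figure D2:**
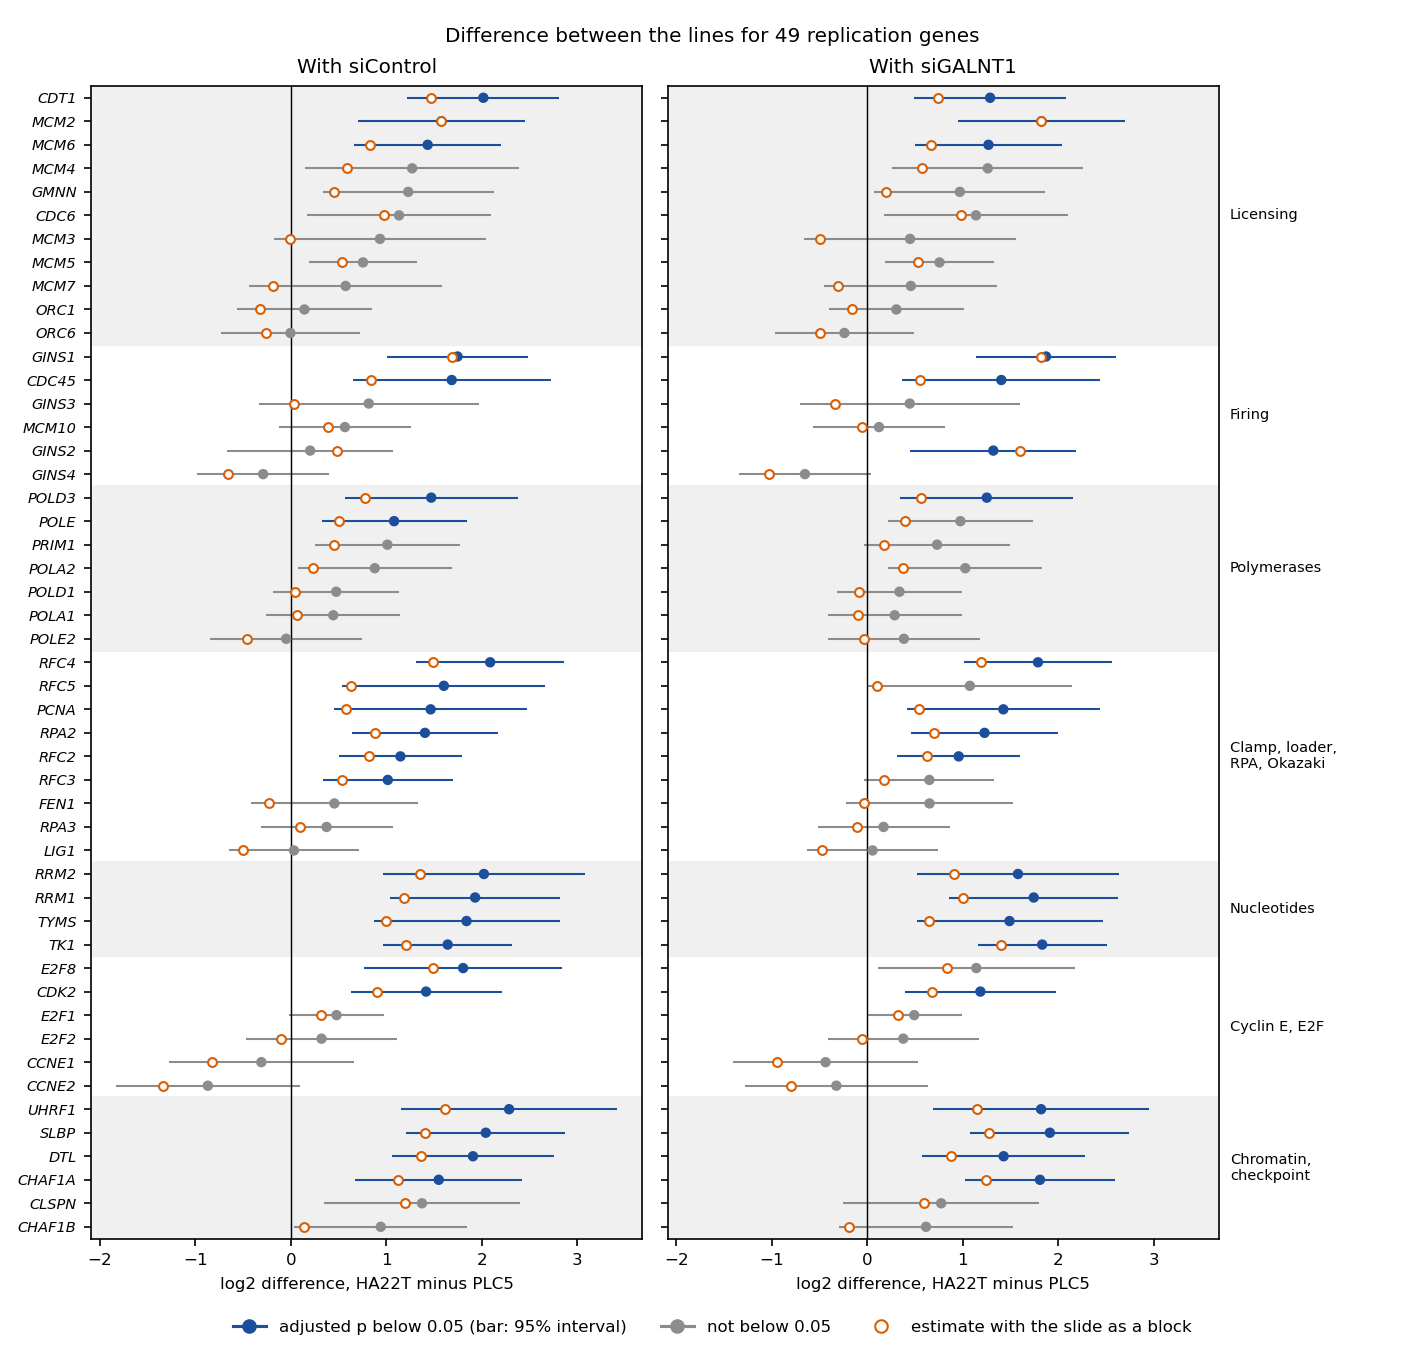
Log2 difference (HA22T minus PLC5) of the 49 replication genes with siControl and with siGALNT1, by role. Filled points are limma estimates with 95% intervals, blue where the adjusted p was below 0.05 (23 and 20 genes); open points are the estimates with the slide as a block, whose medians are 0.54 in both.

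The lines were not spread evenly over the slides. Slide 1 held all 6 HA22T arrays and the PLC5 arrays of replicate 1, and slide 2 held the other 4 PLC5 arrays. Each slide was scanned on its own. Within PLC5, 48 of the 49 genes were higher on the slide 1 arrays than on the slide 2 arrays, with a median log2 difference of 0.80, while all probes had a median of 0.02 and 51.4% above 0. The arrays did not overlap for 36 genes, all higher on slide 1, against 24% of probes higher and 13.9% lower. None of the 49 passed adjustment (0% of probes did), and 30 had an unadjusted p below 0.05 and were higher, against 9.03% of probes, and 0 were lower, against 6.45%. The slide and whatever else set the replicate 1 cultures apart cannot be told apart in PLC5.

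Among the genes most affected by this split were RFC5 (1.46 ± 0.27, SE), MCM3 (1.41 ± 0.33), PCNA (1.33 ± 0.28), CDC45 (1.27 ± 0.33) and TYMS (1.27 ± 0.28). PCNA, for example, read 3.18 and 2.92 on the PLC5 arrays of slide 1, with siControl and siGALNT1, and between 1.31 and 2.00 on the other 4. MCM2 (0.00 ± 0.44) and GINS1 (0.08 ± 0.36) showed no such split, and GINS2 had the only negative value (-0.42 ± 0.41). The 4 nucleotide genes ran from 0.65 ± 0.26 for TK1 up to TYMS.

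**Figure D3:**
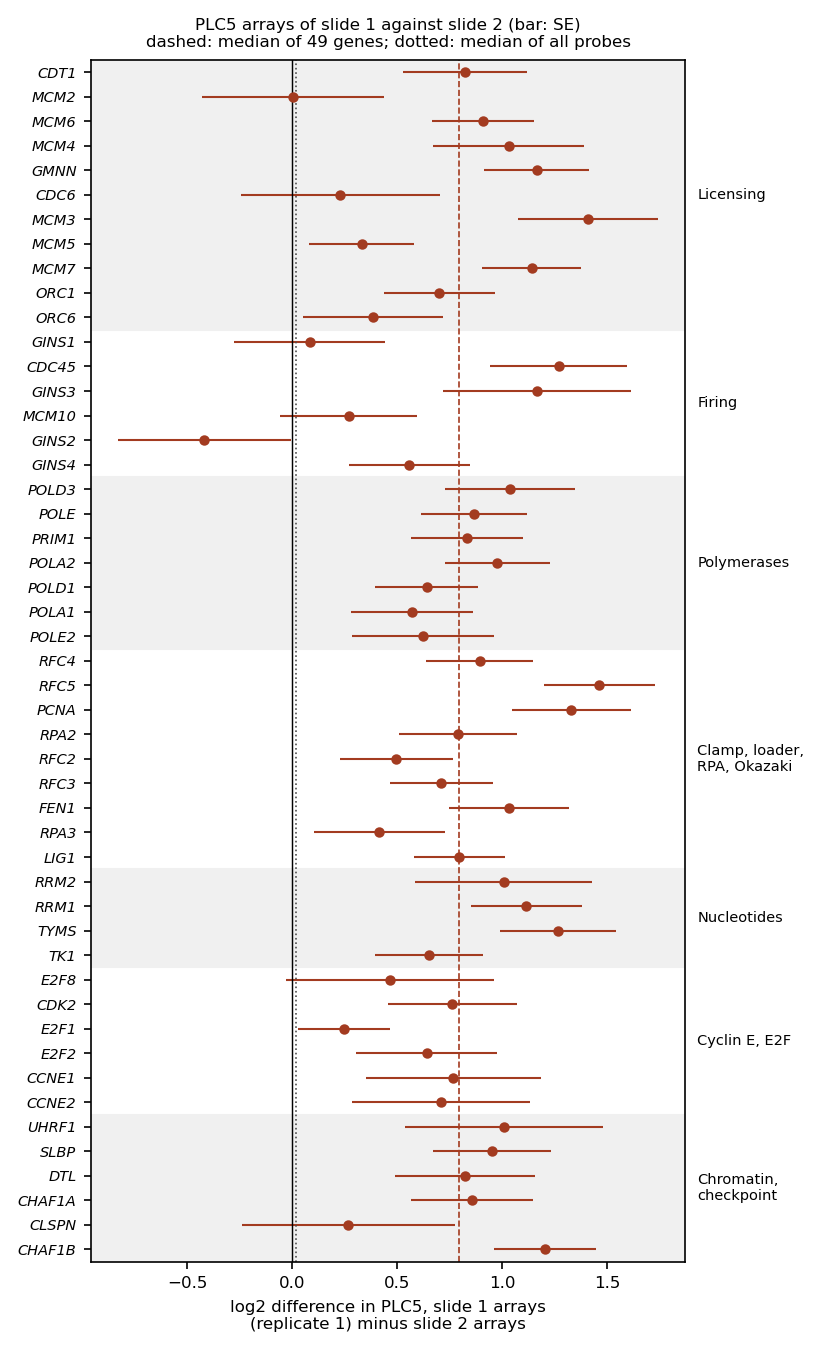
Log2 difference within PLC5 between the 2 arrays of slide 1 (replicate 1) and the 4 arrays of slide 2 for the 49 genes, by role, with SE as bars. The dashed line is the median of the 49 genes (0.80) and the dotted line that of all probes (0.02); GINS2 is the only gene below 0.

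The size of the difference between the lines followed which PLC5 arrays were taken. Against the PLC5 replicate 1 array on the same slide, the median log2 difference of the 49 genes was 0.48 with siControl (38 above 0) and 0.58 with siGALNT1 (35 above 0), beside 0.12 and 0.32 for all probes. Against the slide 2 arrays it was 1.58 and 1.17 with siControl and 1.14 and 1.29 with siGALNT1. With the slide as a block, 8 genes were called higher in HA22T with siControl, and 0 lower, where 9.47% of probes were higher and 8.22% lower. With siGALNT1 it was 8 and 0, where 10.9% were higher and 9.15% lower, and the medians were 0.54 in both, beside 0.15 and 0.28 for all probes. The slide term was shared by both comparisons and estimated from the PLC5 arrays of both siRNAs, so these results are not independent of each other. From the slide 1 arrays alone, CDT1 with siControl and MCM2 with siGALNT1 were the single genes called, both higher in HA22T. Of all probes, 3.89% were called higher and 3.95% lower with siControl, and 4.4% and 3.67% with siGALNT1. These slide 1 comparisons leave only the PLC5 array of replicate 1. Their calls hold no measure of spread between PLC5 arrays, so no conclusion is drawn from them. Set against the PLC5 arrays of slide 1 only, all 6 HA22T arrays were higher for 28 of 47 genes and lower for GINS4, LIG1 and CCNE1, against 27% and 18.9% of probes.

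**Figure D4:**
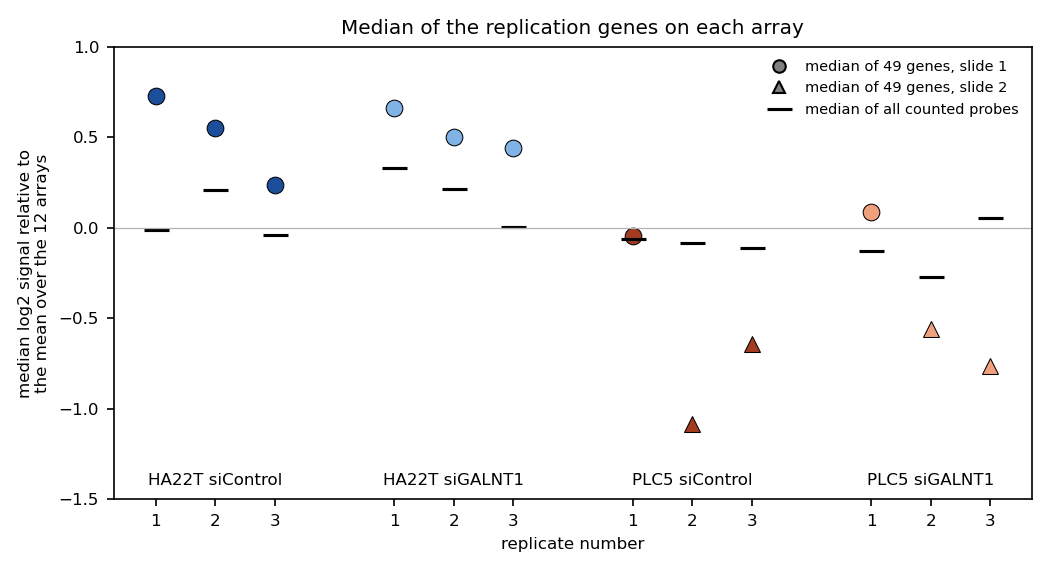
Median log2 signal of the 49 genes on each array, after subtracting each gene's mean over the 12 arrays; circles are slide 1, triangles slide 2, and black dashes give the same median over all counted probes. The 6 HA22T arrays lie between 0.24 and 0.73, the PLC5 arrays of slide 1 at -0.05 and 0.09, and those of slide 2 between -1.09 and -0.56.

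On the scale of single arrays, the median of the 49 genes, each taken relative to its own mean over the 12 arrays, was 0.73, 0.55 and 0.24 in HA22T siControl and 0.66, 0.50 and 0.44 in HA22T siGALNT1. In PLC5 it was -0.05, -1.09 and -0.64 with siControl and 0.09, -0.56 and -0.76 with siGALNT1. Every HA22T array was above every PLC5 array, and the replicate 1 array was the highest of its group in all 4 groups, in HA22T too, where all replicates share a slide. The median over all counted probes stayed between -0.27 and 0.33.

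Counts by role are read against the 13% of probes called higher with siControl and the 15% with siGALNT1. Of the 11 licensing genes, 3 were called in each comparison. MCM2, a subunit of the helicase ring, read 4.83, 4.41 and 4.70 in HA22T siControl and 3.00, 3.20 and 3.01 in PLC5 siControl. With siGALNT1 it read 4.97, 4.47 and 4.42 against 2.87, 1.83 and 3.68. No PLC5 array reached an HA22T array, and the log2 differences were 1.58 ± 0.40 (SE, adjusted p = 0.0144) and 1.83 ± 0.40 (adjusted p = 0.00669). With the slide as a block they were 1.58 ± 0.50, which did not pass, and 1.82 ± 0.50, which did (adjusted p = 0.0295).

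CDT1, which brings the helicase to origins, read 1.37, 1.18 and 0.97 in HA22T siControl against -0.42, -1.44 and -0.66 in PLC5 siControl. With siGALNT1 the HA22T arrays read 1.07, 0.87 and 0.86, above the highest PLC5 array at 0.32. Its log2 differences were 2.02 ± 0.36 (adjusted p = 0.00189) and 1.29 ± 0.36 (adjusted p = 0.0242), and with the slide as a block they were 1.47 ± 0.34, which passed, and 0.74 ± 0.34, which did not (adjusted p = 0.151). MCM6 differed by 1.43 ± 0.35 and 1.27 ± 0.35, both called, and neither was with the slide as a block.

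Read from their brightest probes, the other 4 subunits of the ring passed in neither comparison. MCM4 differed by 1.27 ± 0.50 (SE, from 2 HA22T siControl values) and 1.26 ± 0.45, MCM5 by 0.76 ± 0.26 and 0.76 ± 0.26, MCM3 by 0.93 ± 0.51 and 0.45 ± 0.51, and MCM7, also from 2 HA22T siControl values, by 0.57 ± 0.46 and 0.46 ± 0.41. For MCM3 and MCM7 the difference from the PLC5 array of the same slide was 0.03 and -0.10 with siControl, and -0.53 and -0.39 with siGALNT1. A dimmer probe of MCM5, well above background on all 12 arrays, gave 1.96 and 1.91 and passed in both comparisons (adjusted p = 0.00301 and 0.00375), so the probes of MCM5 differ in their call. CDC6 differed by 1.13 ± 0.44 and 1.14 ± 0.44 and GMNN by 1.23 ± 0.41 and 0.97 ± 0.41, none of which passed. The origin recognition subunits lay near 0 with siControl, ORC1 at 0.14 ± 0.32 and ORC6 at -0.00 ± 0.33.

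Among the 6 firing factors, GINS1, of the GINS complex, was called under every setting that kept replicate arrays in each group. It read -0.61, -0.76 and -1.57 in HA22T siControl and -2.57, -3.07 and -2.54 in PLC5 siControl, and with siGALNT1 -0.95, -0.90 and -1.12 against -2.91, -2.34 and -3.34. Every HA22T array was above every PLC5 array, on both slides. The log2 differences were 1.75 ± 0.34 (SE, adjusted p = 0.00292) and 1.87 ± 0.34 (adjusted p = 0.002), and 1.69 ± 0.42 and 1.82 ± 0.42 with the slide as a block, which both passed. CDC45, the helicase partner of GINS, differed by 1.69 ± 0.47 and 1.40 ± 0.47 and was called in both, but not with the slide as a block. GINS2 differed by 0.20 with siControl, which did not pass, and by 1.32 with siGALNT1, which did (adjusted p = 0.032). With the slide as a block GINS2 kept its call with siGALNT1. In all, 2 of the 6 were called with siControl and 3 with siGALNT1. GINS4 ran the other way, at -0.29 ± 0.32 and -0.65 ± 0.32, which did not pass.

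Of the 7 polymerase subunits, POLD3 of polymerase delta was called in both comparisons (1.47 ± 0.41 and 1.25 ± 0.41, SE) and POLE, the catalytic subunit of polymerase epsilon, with siControl (1.08 ± 0.35). A dimmer POLE probe, well above background on all 12 arrays, gave 0.52 with siControl and did not pass (adjusted p = 0.183). None of the 7 was called with the slide as a block. In the clamp group RFC4, a subunit of the clamp loader, had the largest difference. Its arrays read 2.86, 2.76 and 2.56 in HA22T siControl against 1.31, 0.01 and 0.60 in PLC5 siControl, and 2.37, 2.85 and 2.75 against 1.40, 0.69 and 0.53 with siGALNT1. The lowest HA22T array was thus above the highest PLC5 array, which was on the same slide. The log2 differences were 2.09 ± 0.35 (adjusted p = 0.00124) and 1.79 ± 0.35 (adjusted p = 0.00365), and 1.49 ± 0.30 and 1.19 ± 0.30 with the slide as a block, which both passed.

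PCNA read 3.89, 3.68 and 3.31 in HA22T siControl against 3.18, 1.31 and 2.00 in PLC5 siControl, a log2 difference of 1.46 ± 0.46 (SE, adjusted p = 0.0411). Against the PLC5 array of the same slide it was 0.44, and with the slide as a block it was not called. All 3 probes of PCNA passed with siControl. With siGALNT1 the brightest passed at 1.43 and another at 1.25, while the dimmest gave 0.61 and did not pass (adjusted p = 0.203). RFC2, a loader subunit, and RPA2, of the protein that coats single-stranded DNA, were called in both comparisons, at 1.15 ± 0.29 and 1.41 ± 0.35 with siControl, and in neither with the slide as a block. LIG1, the ligase that joins Okazaki fragments, did not differ beyond its error (0.03 ± 0.31 and 0.06 ± 0.31).

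All 4 nucleotide genes were called in both comparisons. TK1 read 5.24, 5.33 and 5.22 in HA22T siControl and 4.13, 3.42 and 3.32 in PLC5 siControl, a log2 difference of 1.64 ± 0.31 (SE, adjusted p = 0.00249), and with siGALNT1 it was 1.83 ± 0.31 (adjusted p = 0.00131). RRM1, the large subunit of ribonucleotide reductase, read 0.71, 0.09 and 0.02 against -0.90, -2.26 and -1.82 with siControl, a difference of 1.93 ± 0.40 (adjusted p = 0.00495), and 1.74 ± 0.40 with siGALNT1. Both genes were also called with the slide as a block in both comparisons, TK1 at 1.21 ± 0.30 and 1.40 ± 0.30 and RRM1 at 1.19 ± 0.31 and 1.00 ± 0.31. RRM2 differed by 2.02 ± 0.48 and 1.58 ± 0.48 and TYMS by 1.84 ± 0.44 and 1.49 ± 0.44, and these were not called with the slide as a block.

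Of the 6 cyclin E and E2F genes, 2 were called with siControl and 1 with siGALNT1. CDK2, the kinase partner of cyclin E, was called in both comparisons (1.42 ± 0.36 and 1.18 ± 0.36, SE), and E2F8 with siControl (1.81 ± 0.47), from a probe well above background on only 1 of 3 PLC5 siControl arrays. With the slide as a block neither was called. E2F1 differed by 0.48 ± 0.23 and 0.49 ± 0.23, with every HA22T array above every PLC5 array but no adjusted p below 0.05. CCNE1, the other cyclin E, ran lower in HA22T, at -0.31 ± 0.44 and -0.44 ± 0.44, neither of which passed. Its arrays read 0.87, -0.33 and -0.36 in HA22T siControl and 1.02, -0.02 and 0.10 in PLC5 siControl, where replicate 1 was the highest in both lines.

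The 2 probes of CCNE2 went in opposite directions. The brighter one read -0.87, -1.24 and -2.18 in HA22T siControl and -0.06, -0.84 and -0.78 in PLC5 siControl, a log2 difference of -0.87 that did not pass (adjusted p = 0.191). The dimmer one read -1.38, -3.10 and -3.24 against -5.98, -4.99 and -5.99, a difference of 3.08 (adjusted p = 0.00197), and was well above background on 2 of the 3 PLC5 siControl arrays and on 1 with siGALNT1. No direction is given for CCNE2. Of the 9 genes with more than 1 probe, the other 8 ran in a single direction in both comparisons.

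In the chromatin and checkpoint group, 4 of 6 genes were called in each comparison, where 13% and 15% of probes were called higher. SLBP, which binds the stem-loop of histone mRNA, read 2.14, 1.71 and 1.48 in HA22T siControl against 0.38, -0.78 and -0.41 in PLC5 siControl. With siGALNT1 it read 1.86, 2.11 and 1.59 against 0.57, -0.12 and -0.61. Its log2 differences were 2.04 ± 0.38 (SE, adjusted p = 0.00234) and 1.91 ± 0.38 (adjusted p = 0.00379), and 1.41 ± 0.32 and 1.28 ± 0.32 with the slide as a block, which both passed. UHRF1 had the largest difference of the 49 genes with siControl, 2.29 ± 0.52 (adjusted p = 0.00766), and 1.82 ± 0.52 with siGALNT1. Its HA22T and PLC5 arrays did not overlap with siControl, and it was not called with the slide as a block. DTL differed by 1.91 ± 0.39 and 1.43 ± 0.39 and CHAF1A by 1.55 ± 0.39 and 1.81 ± 0.35, all called. With the slide as a block, CHAF1A kept both calls and DTL that with siControl.

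**Figure D5:**
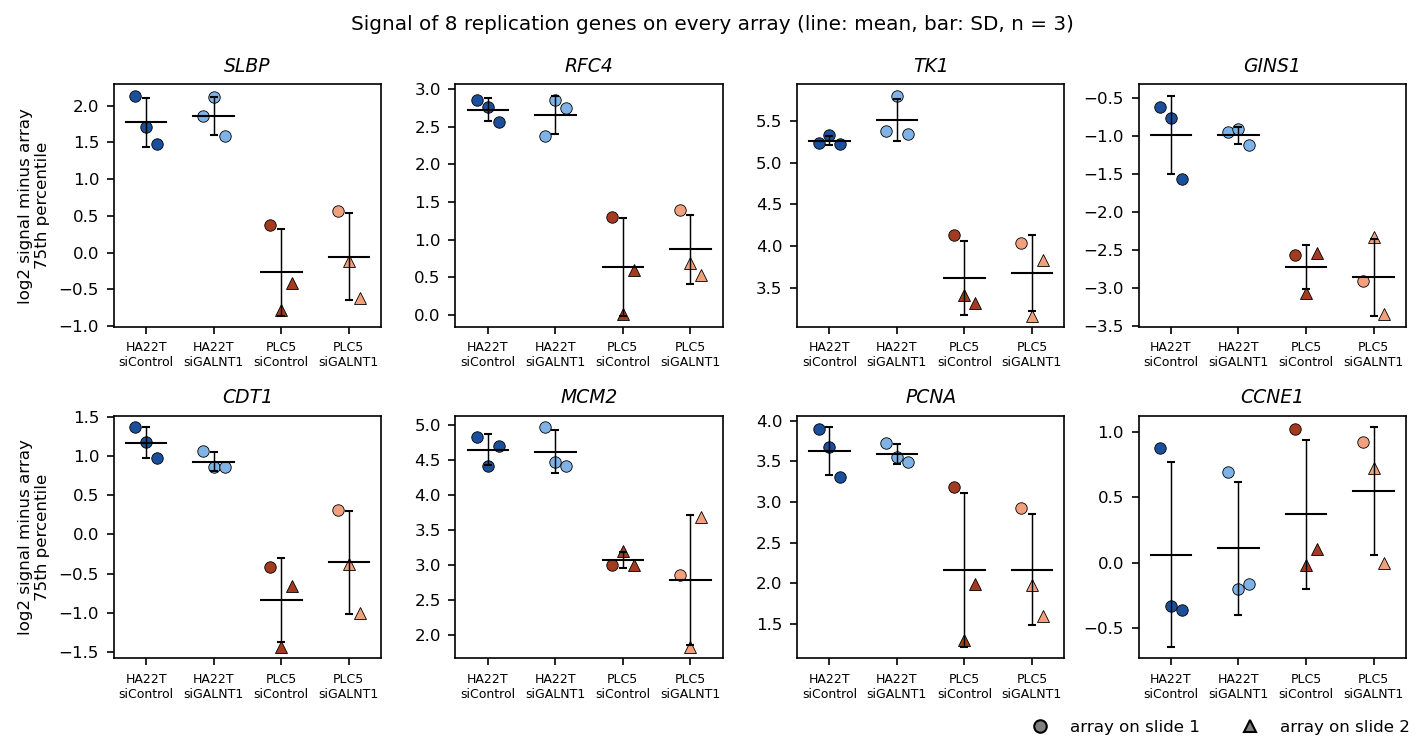
Log2 signal relative to the array's 75th percentile of 8 replication genes on each of the 12 arrays; circles are slide 1 and triangles slide 2, the line is the group mean and the bar its SD (n = 3). In all panels but that of CCNE1, every HA22T array is above every PLC5 array; each panel has its own axis, and levels are not compared between genes.

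Genes of the same pathway outside the 49 were also read. Of 34 other replication genes, 33 were tested, and 15 were higher in HA22T and 0 lower with siControl, with a median log2 difference of 0.85, and 16 were higher and 1 lower with siGALNT1, with a median of 0.83. Of all probes, 13% were called higher and 9.61% lower with siControl and 15% and 10.3% with siGALNT1, with medians of 0.15 and 0.32. With siControl the largest were MTBP, an origin firing factor, at 2.65 ± 0.33 (SE), POLE4, a small subunit of polymerase epsilon, at 2.48 ± 0.35, ASF1B, a histone chaperone, at 1.94 ± 0.37, RPA1 at 1.89 ± 0.26 and the nuclease DNA2 at 1.87 ± 0.31. ASF1A, the paralog of ASF1B, was the gene called lower with siGALNT1, at -1.35 ± 0.38, and it was not called with the slide as a block. With the slide as a block 8 were higher and 0 lower with siControl, where 9.47% and 8.22% of probes were. With siGALNT1 it was 7 higher and 2 lower, ORC5 and CHTF18, where 10.9% and 9.15% were. In PLC5, 30 of the 33 were above 0 on slide 1 against slide 2, with a median of 0.74, against 51.4% of probes and a median of 0.02.

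Of 24 genes of the switch from G1 to S, 23 were tested, and 9 were higher in HA22T and 1 lower in both comparisons, against the same shares of probes, with medians of 0.99 and 0.90. The repressor E2F7 had the largest difference with siControl, 3.72 ± 0.45 (SE). RB1, which holds E2F factors in check, followed at 2.35 ± 0.26, then CCNA2, cyclin A, at 2.13 ± 0.44, CCND3, a cyclin D, at 2.06 ± 0.31 and SKP2, which marks CDK inhibitors for removal, at 2.03 ± 0.32. E2F5 was the gene lower in HA22T, at -0.95 ± 0.26. The slide as a block gave 8 higher and 0 lower with siControl and 6 higher and 1 lower with siGALNT1, against the shares with that block given above. Knockdown called 0 genes of either list in either line by limma, and 1 had an unadjusted p below 0.05, MCM9 in PLC5 (-0.64 ± 0.28).

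The lines also differed in other cell type markers, whose part in the difference between the lines was not tested. Of 9 hepatocyte markers, 8 were called lower in HA22T in both comparisons, with medians of -4.92 and -4.85, among them APOB at -9.44 ± 0.29 (SE) and ALB, albumin, at -3.85 ± 0.47 with siControl. TTR and TF were well above background on only 1 of 3 HA22T siControl arrays each. APOB was well above background on 2 of the 3. AFP, a fetal protein often raised in hepatocellular carcinoma, differed by -0.19 ± 0.38 and was not called. The mesenchymal markers split, with VIM higher in HA22T by 5.65 ± 0.42 and FN1 at -3.49 ± 0.26. CDH2, also tested, differed by 1.56 with siControl, which did not pass, and by 2.20 with siGALNT1, which did. Of 3 endothelial markers, PECAM1 alone was called, lower in HA22T in both comparisons, at -5.30 and -5.72. Of 3 epithelial markers tested, 1 was called higher with siControl and 0 with siGALNT1. Neither of the 2 leukocyte markers tested was called. Of the 3 proliferation markers, MKI67 (2.01 ± 0.49) and TOP2A (1.90 ± 0.29) were called higher in HA22T with siControl and CCNB1 (1.01 ± 0.36) was not, and with siGALNT1 TOP2A alone was. On the PLC5 arrays of slide 1 all 3 were above those of slide 2, by a median of 0.85.

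From 62.5% to 83.2% of the 58717 spots were well above background on an array, none was saturated, and replicate arrays correlated at 0.968 to 0.988. Arrays have no read depth, and each group holds 3 of them. The methods describe extraction in triplicate, and do not say for the arrays whether the 3 samples came from separate cultures, so p-values may measure technical spread.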

How the data were processed

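Total RNA of the HA22T and PLC5 cells was labeled in a single color and read on 12 Agilent SurePrint G3 8x60K v2 arrays. The intensity values that the authors deposited were background-subtracted processed signals from Agilent Feature Extraction 10.5.1.1, together with median spot brightness and flags. A table of log2 signals was deposited as well, and each of its columns has its 75th percentile at about 0, a scaling that is inferred from the values.

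Spots flagged as controls or as non-uniform were dropped, spots of a probe were averaged, and log2 signals were taken relative to each array's 75th percentile. Probes were named through RefSeq transcripts (28174 of 50599). The 4 groups were fitted together with limma 3.58.1 in R 4.3.3, with Benjamini-Hochberg adjustment at 0.05 over the probes that rose well above background on 3 or more of the 6 arrays in a comparison. The script was tested on simulated data. Alternatives covered background correction, normalization, dim probes, flags, slide, pairing, the test and each array left out. The t-test of the methods was one of them.

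The members, lists and naming rule (15 genes whatever their values, up to the 10 largest called in a comparison, and the 3 at each end) were chosen with earlier results of these data known. Same-numbered arrays deviated together in HA22T (correlations of 0.526, 0.264 and 0.338) but not in every pair in PLC5 (0.58, 0.00 and 0.182), so numbers were taken to pair the HA22T samples only, as a hint from the data. The main fit did not use this pairing. The alternative with the replicate as a block went further, since it paired by number in PLC5 too. In the comparisons of the lines it paired by number across the lines.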

Additional observations from a re-analysis of the deposited data

How the results depend on the processing

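At an adjusted p below 0.05, 0 replication genes were called with knockdown and in the interaction under every alternative run, the replicate block included. At an unadjusted p below 0.05, limma called GINS3 in HA22T with the replicate block, CDC6 in HA22T without siGALNT1 replicate 2, CDT1 and GINS2 in PLC5 without siGALNT1 replicate 3, and GINS2 in the interaction with a trend in the prior or without PLC5 siGALNT1 replicate 3. With the replicate block the lines differed in 28 genes with siControl and 23 with siGALNT1, and the numbers do not pair samples across lines. Of the 28, CCNE2 alone was lower in HA22T, on its brighter probe, and its probes go in opposite directions. The slide as a block lowered the calls to 8 and 8 and the medians to 0.54 and 0.54. The slide 1 arrays alone, an alternative chosen after seeing the data, gave medians of 0.48 and 0.58. They leave only the PLC5 array of replicate 1 in each comparison. Their calls, given above, thus hold no measure of spread between PLC5 arrays and are not read further. The t-test of the methods called 6 with siControl and 4 with siGALNT1. Apart from the main fit and the slide as a block, the counts of line differences here have no share of all probes beside them. They show how the calls move with the setting and no more. With siGALNT1, the deposited log2 table and keeping non-uniform spots each gave 9 calls, fitting only the groups compared gave 10, and taking differences relative to the median of all probes, also chosen after seeing the data, gave 8. The cause of these lower counts was not tested. Leaving out one array at a time gave 12 to 29 calls with siControl, lowest without HA22T siControl replicate 1 or PLC5 siControl replicate 2, with medians from 0.90 to 1.39. With siGALNT1 it gave 7 to 23, lowest without PLC5 siGALNT1 replicate 2, with medians from 0.76 to 1.23. CDT1, GINS1, RFC4, TK1 and SLBP passed with siControl, and GINS1, RFC4 and TK1 with siGALNT1, under every alternative but those chosen after seeing the data. Averaging the probes of each gene turned CCNE2 with siGALNT1 from -0.32 to 1.69, since its probes disagree. With 3 arrays a group, adjustment over all probes missed large knockdown effects too, since GALNT1 itself at -3.71 and -3.02 in PLC5 was not called.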
